A study of Mus musculus with 16 samples.

Results

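Macrophages of bone marrow stromal cell cultures from Dmp1KO mice were compared gene by gene with those of WT cultures. A cell was taken as a macrophage when at least 500 genes and under 20% mitochondrial transcripts were detected in it, when Lyz2, Tyrobp, Fcer1g, C1qa, C1qb and C1qc together made at least 80 of every 10000 of its gene UMIs, and when Col1a1, Col1a2, Sparc, Tagln and Tpm2 together made under 25. UMIs (unique molecular identifiers) mark single captured mRNA molecules. The rule took 9168 cells, 4161 from 3 WT cultures (896, 1778 and 1487 cells) and 5007 from 2 Dmp1KO cultures (2584 and 2423 cells), of 9932 cells of the 5 cultures that passed the filter and of 17793 barcodes in the 15 samples analysed. The cells were thus chosen by the levels of these 11 genes, which are given only as a description.

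The stromal cells came from the bone marrow of 12-week-old mice and were grown for 21 days in osteogenic medium with 10 mM beta-glycerophosphate (bGP). Per the study's methods, WT mice carried intact Dmp1, Fgf23 flanked by loxP sites and no Cre, and Dmp1KO mice carried the same floxed Fgf23 without Cre and lacked Dmp1 in every cell. The other genotypes, Fgf23cKO (floxed Fgf23 with Dmp1-cre, which acts in late osteoblasts and osteocytes) and Dmp1KO/Fgf23cKO (both changes, called the double knockout below), entered the fit with 3 cultures each. The cultures of a genotype were tagged, sorted for viable cells, pooled and run in 1 droplet reaction, so an effect of the reaction cannot be told apart from that of the genotype. The culture Dmp1KO 1 was not analysed here, and the labels do not say which animal gave which culture.

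DMP1 (dentin matrix protein) is a secreted matrix protein of osteocytes and mature osteoblasts, and its loss is known for raising FGF23 and lowering blood phosphate. Macrophages persist in marrow stromal cultures beside the osteoblast lineage. Tissue macrophages clear dying cells and particles with scavenger receptors, digest them in lysosomes, recycle iron, present antigen and secrete chemokines and growth factors, and they can fuse into osteoclasts. When laden with lipid they are known to take up a program that includes Spp1, Lgals3, Lpl, Fabp5, Trem2 and Itgax.

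Depth differed between the reactions. The median macrophage held 7244 to 7753 UMIs and 2702 to 2784 genes in the WT cultures, and 21120.0 to 23190 UMIs and 4657 to 4835 genes in the Dmp1KO cultures, while medians in the other 2 genotypes were 34557 to 39829 UMIs. Summed macrophage UMIs came to 7248397 to 14399409 per WT culture and to 69160058 and 58329295 per Dmp1KO culture. Median mitochondrial shares were 2.67 to 2.71% in WT and 2.98 and 3.002% in Dmp1KO. No cell barcode was shared between cultures of a genotype, and 4 were shared between the reactions.

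Dmp1 was close to absent in the Dmp1KO cultures. In the macrophages it gave 14, 23 and 20 UMIs in the WT cultures and 0 in both Dmp1KO cultures, which at a floor of 3 counts per culture is at least 27.8-fold lower. Over all cells that passed the filter, it gave 453, 440.0 and 1758 UMIs in WT, 0 and 3 in Dmp1KO, and 76, 47 and 26 in the double knockout, which is labelled with the same loss of Dmp1 and was thus not as close to 0. The rule's macrophage genes summed to 31184 to 33881 CPM in WT and 34967 to 35884 CPM in Dmp1KO (CPM, counts per 1000000 UMIs after TMM scaling), and its 5 stromal genes to 109.7 to 138 CPM in WT and 54.2 to 60.9 CPM in Dmp1KO. Col1a1 stood at 52.7 CPM in WT and 15.6 CPM in Dmp1KO, C1qa at 2218 CPM in WT and 3057 CPM in Dmp1KO, C1qb at 2124 CPM in WT and 3591 CPM in Dmp1KO, C1qc at 2044 CPM in WT and 2062 CPM in Dmp1KO and Lyz2 at 21929 CPM in WT and 21192 CPM in Dmp1KO. Just inside the macrophage limit, at 80 to 100 per 10000, lay 43 WT and 84 Dmp1KO cells, and just outside it, at 60 to 80, lay 41 and 70. Between 20 and 25 on the stromal sum lay 7 WT and 2 Dmp1KO cells, and between 25 and 30 lay 9 and 2.

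The label of macrophages held on genes outside the rule. The macrophage markers Csf1r, Cd68, Adgre1, Itgam, Fcgr1, Mertk, Cd14 and Spi1 summed to 3166 to 3259 CPM in WT and 3099 to 3179.5 CPM in Dmp1KO. Defining markers of dendritic cells (Flt3, Zbtb46, Xcr1, Clec9a) summed to 0.615 to 1.597 CPM in WT and 0.343 to 0.535 CPM in Dmp1KO, those of T and NK cells to 0.133 to 0.384 CPM in WT and 0.258 to 0.274 CPM in Dmp1KO and those of B cells to 0 to 0.136 CPM in WT and 0.0991 to 0.1199 CPM in Dmp1KO, all close to 0. Macrophages made 86.3, 93.9 and 88.0% of the filtered cells in the WT cultures and 95.1 and 93.4% in the Dmp1KO cultures. These shares overlapped, and the difference of 4.81 percentage points could not be called at this number of cultures (exact two-sided permutation test, p = 0.4, the smallest possible being 0.2).

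Dmp1KO macrophages differed from WT macrophages in a large part of what they expressed. Of 13780 genes tested, 4969 (36.1%) were higher and 4675 (33.9%) were lower in Dmp1KO at an adjusted p under 0.1 (edgeR quasi-likelihood test, Benjamini-Hochberg), so 70.0% of all genes passed. The CPM of the 3 WT and the 2 Dmp1KO cultures did not overlap for 75.9% of the genes. With so many calls a small difference says little about a gene, and the counts below are therefore of genes that also changed at least 2-fold: 1220 genes (8.85%) were higher and 1513 (11%) were lower. Counts of list members below are to be read beside these shares over all genes. Shares of 2-fold calls in either direction were larger among sparse genes, at 39.5% under 2.20 mean CPM and 14.9% above 65.6 CPM. The sparse genes were also shifted down, with a median log2 fold change of -0.43, against 0.06 above 65.6 CPM. With each cell thinned to 2000 UMIs, 616 of 9987 genes were at least 2-fold higher and 557 lower. The split of all calls depended on the scaling. With total UMIs in place of TMM factors, 3233 were higher and 7021 lower, 706 and 2144 of them at least 2-fold, and the median log2 fold change of all genes moved from 0.00 to -0.26. The fold changes below are on the TMM scale.

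**Figure D1:**
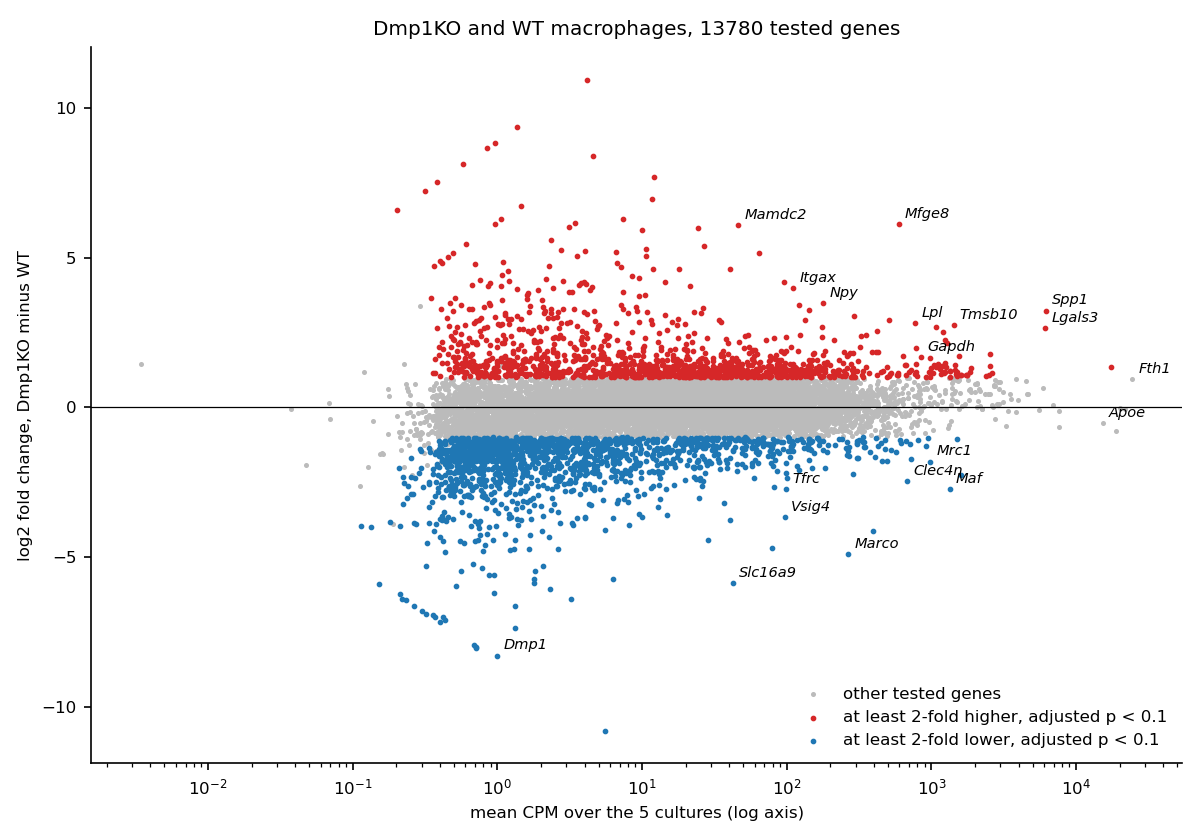
Log2 fold change between Dmp1KO and WT macrophages (y axis) against the mean CPM over the 5 cultures (x axis, log scale), with 1 point per tested gene. Red points are the 1220 genes called at least 2-fold higher and blue points the 1513 called at least 2-fold lower; Mfge8, Spp1 and Lgals3 stand high among abundant genes, and Maf, Marco and Clec4n low.

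Among genes with a mean of at least 20 CPM, Mfge8 rose most. It encodes a secreted protein that bridges phosphatidylserine on dying cells to integrins of phagocytes. Mfge8 measured 10.1, 15.1 and 34.99 CPM in the WT cultures and 1563 and 1339 CPM in the Dmp1KO cultures (log2 fold change 6.11 ± 0.43 (SE), adjusted p = 4.3e-08). It was thus a minor transcript in every WT culture and among the abundant ones in both Dmp1KO cultures. Mamdc2, a MAM domain protein, measured 0.799, 2.31 and 1.46 CPM in the WT cultures and 124 and 102 CPM in the Dmp1KO cultures (log2 fold change 6.08 ± 0.24 (SE), adjusted p = 5.2e-10). Nes, the intermediate filament nestin, measured 1.06, 1.29 and 0.461 CPM in the WT cultures and 67.2 and 52.3 CPM in the Dmp1KO cultures (log2 fold change 5.99 ± 0.31 (SE), adjusted p = 3.5e-09). Cultures that did not overlap were a condition for naming the largest rises and falls. In these 3 genes the lowest Dmp1KO culture was far above the highest WT culture.

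Efr3b, a membrane anchor of a lipid kinase, rose from 1.44 to 64.7 CPM, and Dach1, a transcriptional cofactor, rose from 4.04 to 153 CPM (log2 fold change 5.16 ± 0.24 (SE), adjusted p = 1.6e-09). Chst11, which sulfates chondroitin, rose from 3.99 to 94.5 CPM, and Wfs1, an endoplasmic reticulum membrane protein, rose from 2.78 to 49.2 CPM. Fgf13, an intracellular FGF homologue that is not a ligand of the FGF receptors, measured 11.6, 14.3 and 10.7 CPM in the WT cultures and 234 and 212 CPM in the Dmp1KO cultures (log2 fold change 4.17 ± 0.23 (SE), adjusted p = 4.4e-09). Itgax, the integrin subunit CD11c, measured 18.8, 11.6 and 18.8 CPM in the WT cultures and 279 and 226 CPM in the Dmp1KO cultures (log2 fold change 3.98 ± 0.22 (SE), adjusted p = 4.7e-09). Npy, neuropeptide Y, measured 38.2, 30.8 and 37.4 CPM in the WT cultures and 418 and 365 CPM in the Dmp1KO cultures (log2 fold change 3.48 ± 0.34 (SE), adjusted p = 9.6e-07). Pcdh7, a protocadherin, rose from 25.2 to 265 CPM, and Cd200, the ligand of an inhibitory myeloid receptor, rose from 5.71 to 56.9 CPM (log2 fold change 3.33 ± 0.26 (SE), adjusted p = 9.2e-08).

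The largest fall was that of Slc16a9. Slc16a9, a member of the monocarboxylate transporter family, measured 56.05, 78.7 and 74.9 CPM in the WT cultures and 0.8395 and 1.63 CPM in the Dmp1KO cultures (log2 fold change -5.87 ± 0.27 (SE), adjusted p = 1.4e-09). Marco, a class A scavenger receptor for bacteria and particles, measured 344, 455 and 500.1 CPM in the WT cultures and 14.4 and 14.9 CPM in the Dmp1KO cultures (log2 fold change -4.89 ± 0.34 (SE), adjusted p = 3.5e-08). Vsig4, a complement receptor of resident macrophages, measured 144, 139 and 176 CPM in the WT cultures and 10.4 and 13.9 CPM in the Dmp1KO cultures (log2 fold change -3.66 ± 0.18 (SE), adjusted p = 2.6e-09). The highest Dmp1KO value of each of these 3 genes was far below its lowest WT value, where no overlap was again a condition for naming them. Maf, a transcription factor of resident macrophages, was the most abundant of the 12 falls, with 1946, 2104 and 2026 CPM in the WT cultures and 255 and 357 CPM in the Dmp1KO cultures (log2 fold change -2.73 ± 0.13 (SE), adjusted p = 1.6e-09). Clec4n, a C-type lectin receptor of fungal patterns, measured 906, 1066 and 1060.4 CPM in the WT cultures and 147 and 218 CPM in the Dmp1KO cultures (log2 fold change -2.47 ± 0.15 (SE), adjusted p = 1.4e-08).

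Tfrc, the transferrin receptor, fell from 149 to 22.4 CPM (log2 fold change -2.74 ± 0.11 (SE), adjusted p = 7.6e-10). Ednrb, an endothelin receptor, fell from 38.7 to 6.32 CPM, Dmpk, a serine/threonine kinase, fell from 57.04 to 6.28 CPM, and Kazn, a cytoskeletal adaptor, fell from 129 to 5.04 CPM (log2 fold change -4.69 ± 0.16 (SE), adjusted p = 2.3e-10). Several of these genes overlap others in the annotation. A gene model lies on the opposite strand of Slc16a9, Maf and Kazn and, among the rises, of Mamdc2, Efr3b, Chst11 and Pcdh7. Such overlaps also occur among the genes named below, and their part in the values was not tested. Ccdc152 fell from 63.96 to 4.77 CPM and lies over Selenop on the opposite strand, itself lower in Dmp1KO (log2 fold change -1.30). Adap2os fell from 123 to 19.7 CPM and lies opposite Adap2 (log2 fold change -0.76), and Ccdc162 fell from 39.2 to 7.23 CPM and overlaps further predicted genes. In the GENCODE M21 annotation of GRCm38, Mfge8 lies at chr7:79133768-79149060, Itgax at chr7:128129547-128150657, Marco at chr1:120474538-120505024 and Maf at chr8:115682942-115707794.

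**Figure D2:**
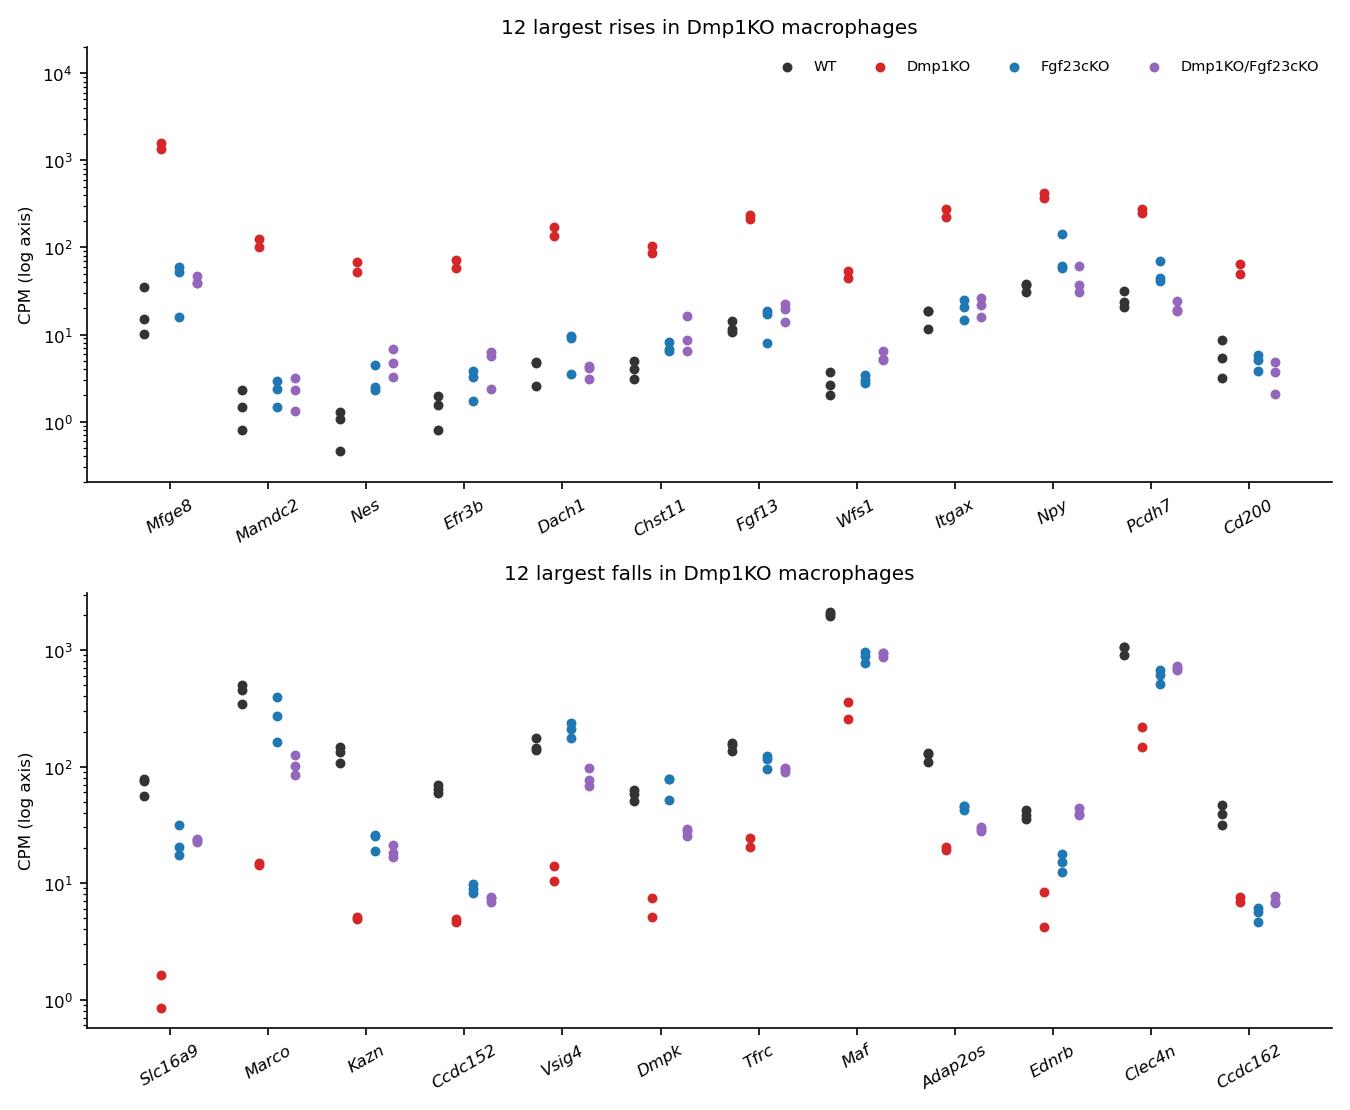
CPM (log axis) of the 12 largest rises (top) and the 12 largest falls (bottom) in Dmp1KO macrophages, with 1 point per culture and 1 colour per genotype. The 2 Dmp1KO points of each rise lie above all points of the other genotypes, while for Ccdc162 and Ccdc152 the Fgf23cKO and double knockout points lie near those of Dmp1KO.

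These genes were also measured in the other reactions. These comparisons share the Dmp1KO cultures with the main one and are given only side by side. Mfge8 had means of 42.1 CPM in Fgf23cKO and 42.1 CPM in the double knockout, and its log2 difference was 5.10 to Fgf23cKO and 5.10 to the double knockout. Mamdc2 (5.62 and 5.69), Itgax (3.63 and 3.57), Cd200 (3.55 and 3.94) and Dach1 (4.36 and 5.36) were likewise higher in Dmp1KO than in either. Slc16a9 (-4.24 and -4.26), Marco (-4.23 and -2.82), Vsig4 (-4.10 and -2.74) and Maf (-1.52 and -1.59) were lower in Dmp1KO than in either. Ccdc162 differed from WT but stood at 5.48 CPM in Fgf23cKO and 7.09 CPM in the double knockout, close to the Dmp1KO mean of 7.23 CPM (log2 differences 0.40 and 0.02). Ccdc152 stood at 8.97 CPM in Fgf23cKO and 7.305 CPM in the double knockout, much nearer to Dmp1KO than to WT (log2 differences -0.91 and -0.61). Adap2os stood at 44.7 CPM in Fgf23cKO and 29.1 CPM in the double knockout, between Dmp1KO and WT (log2 differences -1.18 and -0.56). Macrophages of both these reactions were sequenced more deeply than those of Dmp1KO. Values of the other genotypes are given below for some of the named genes only.

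Genes of the lipid-associated program rose as a group. Of the 20 listed, all of which were tested, 14 were at least 2-fold higher and 0 at least 2-fold lower, with a median log2 fold change of 1.53 against 0.00 over all genes. Spp1, which encodes the secreted phosphoprotein osteopontin, measured 1329, 1466 and 1462 CPM in the WT cultures and 14956 and 11708 CPM in the Dmp1KO cultures (log2 fold change 3.23 ± 0.11 (SE), adjusted p = 2.3e-10). Lgals3, the galectin of phagocytes, measured 2164, 1781 and 1977 CPM in the WT cultures and 13114 and 11599 CPM in the Dmp1KO cultures (log2 fold change 2.65 ± 0.21 (SE), adjusted p = 1.4e-07). Lpl, the lipase that releases fatty acids from lipoproteins, measured 239, 213 and 226 CPM in the WT cultures and 1704 and 1459 CPM in the Dmp1KO cultures (log2 fold change 2.81 ± 0.15 (SE), adjusted p = 4.4e-09). In each of the 3 genes the lower Dmp1KO culture was far above the highest WT culture.

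The fatty acid binding proteins Fabp4 (from 56.3 to 354 CPM), Fabp5 (from 1287 to 4411 CPM) and Fabp3 (from 4.84 to 18.3 CPM) rose with them. So did Plin2, the coat protein of lipid droplets (from 137 to 446 CPM), Trem2, the lipid-sensing receptor of the program (from 941 to 2222 CPM), the tetraspanins Cd9 (from 301 to 774 CPM) and Cd63 (from 869 to 2039 CPM), and Mmp12, the macrophage elastase (from 539 to 2404 CPM). Gpnmb and Ctsd rose by less than 2-fold, with log2 fold changes of 0.60 and 0.65. Apoe, the lipoprotein of cholesterol export and the most abundant member, went the other way, with 16356, 18540.5 and 17482 CPM in the WT cultures and 11634 and 12677 CPM in the Dmp1KO cultures (log2 fold change -0.52 ± 0.13 (SE), adjusted p = 2.4e-03). The mean of Apoe was 12596 CPM in Fgf23cKO, near that of Dmp1KO, and 19557 CPM in the double knockout. Pparg, a lipid-sensing nuclear receptor, rose from 22.9 to 70.2 CPM (log2 fold change 1.66). Of 16 genes of fatty acid oxidation and PPAR targets, 4 were at least 2-fold higher and 0 lower, among them Fabp4, Plin2, Pparg and Ech1 (from 38.5 to 82.99 CPM). Cd36, the fatty acid receptor, stood at 1188 CPM in WT and 1138 CPM in Dmp1KO (adjusted p = 0.49).

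Genes of cholesterol synthesis moved less far. Of 21 tested, 15 were called higher and 0 lower, 5 of them at least 2-fold: Mvk (from 4.52 to 18.9 CPM), Fdps (from 19.996 to 68.1 CPM), Pmvk (from 10.6 to 30.5 CPM), Sqle (from 10.1 to 22.005 CPM) and Cyp51 (from 19.3 to 41.1 CPM). The list median was 0.54, and with total UMIs 3 genes reached 2-fold. Among 17 LXR targets and efflux genes, 8 were called higher and 7 lower, 0 were at least 2-fold higher and 1, Mylip, a ubiquitin ligase, was lower (from 178 to 87.1 CPM). All genes tested were likewise divided, with 36.1% called higher and 33.9% lower, 8.85% and 11% by at least 2-fold.

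Most listed genes of uptake fell. Of 20 tested genes listed as scavenger and efferocytosis receptors, 14 were called lower and 4 higher. By at least 2-fold, 10 were lower and 2 higher, and the list median was -0.92. Mfge8, the largest rise given above, is not on this list. Mrc1, the mannose receptor, measured 1360.1, 1418 and 1326 CPM in the WT cultures and 303 and 476 CPM in the Dmp1KO cultures (log2 fold change -1.81 ± 0.16 (SE), adjusted p = 4.5e-07). Stab1, the stabilin of resident macrophages, fell from 1004 to 302 CPM (log2 fold change -1.73 ± 0.14 (SE), adjusted p = 1.1e-07). Siglec1, a sialic acid receptor, fell from 73.5 to 18.5 CPM, and Cd163, the haemoglobin receptor, fell from 6.78 to 1.08 CPM. The receptor kinases of apoptotic cell uptake Mertk (from 521 to 257 CPM) and Axl (from 102 to 41.6 CPM) and their ligand Gas6 (from 559 to 228 CPM) fell together, in contrast to the bridging protein Mfge8. Axl stood at 51.1 CPM in Fgf23cKO and 72.4 CPM in the double knockout, also below WT. Of the 4 members called higher, those at least 2-fold higher, the secreted Cd5l and the receptor Olr1, were sparse, at 5.804 and 1.18 mean CPM in Dmp1KO.

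Of 12 tested complement genes, 7 were called lower and 2 higher; 5 were at least 2-fold lower and 1, Itgax, higher, and the median was -0.69. Cfp, properdin, which stabilizes the alternative pathway convertase, fell from 265 to 65.5 CPM (log2 fold change -2.02 ± 0.13 (SE), adjusted p = 1.6e-08). C3 fell from 16.1 to 3.65 CPM, and C5ar2, a receptor of the C5a peptide, fell from 16.2 to 5.59 CPM. Vsig4, given above, was also among these falls. The C1q genes are part of the cell rule and were not counted.

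General macrophage genes were divided, as were all genes tested (36.1% called higher and 33.9% lower). Of 20 identity genes outside the cell rule, 8 were called higher and 10 lower, and 1 and 2 of these changed at least 2-fold (the 2 were 0 without Dmp1KO 2). Cd14, the lipopolysaccharide coreceptor, measured 84.7, 76.1 and 71.1 CPM in the WT cultures and 276 and 266 CPM in the Dmp1KO cultures (log2 fold change 1.82 ± 0.08 (SE), adjusted p = 1.4e-09). Ms4a7, a membrane protein of mature macrophages, measured 1789, 1913 and 1952 CPM in the WT cultures and 857 and 969 CPM in the Dmp1KO cultures (log2 fold change -1.05 ± 0.07 (SE), adjusted p = 2.8e-08). Spi1, the myeloid transcription factor, rose from 246 to 437 CPM, while Csf1r, the receptor for macrophage colony-stimulating factor, fell from 840.0 to 569 CPM (log2 fold change -0.56) and its ligand Csf1 rose from 5.799 to 35.1 CPM (log2 fold change 2.76 ± 0.25 (SE), adjusted p = 5.0e-07). Adgre1, the F4/80 antigen, fell from 572 to 325 CPM. Itgam, the integrin CD11b, stood at 197 CPM in WT and 206 CPM in Dmp1KO (adjusted p = 0.55).

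Antigen presentation genes rose in part. Of 9 tested class II genes, 5 were at least 2-fold higher and 0 lower: Cd74, the invariant chain (from 49.4 to 147 CPM), H2-Ab1 (from 14.7 to 33.01 CPM), H2-Aa (from 13.7 to 29.01 CPM), the peptide loading subunit H2-DMb1 (from 19.9 to 44.7 CPM) and the transactivator Ciita (from 0.889 to 2.39 CPM). Cd74 measured 52.1, 31.9 and 64.3 CPM in the WT cultures and 145 and 149 CPM in the Dmp1KO cultures, without overlap (log2 fold change 1.58 ± 0.34 (SE), adjusted p = 9.4e-04). The count was 2 with total UMIs, 3 with the replicate number as a block and 3 without WT 2, and the call of H2-Aa (adjusted p = 0.069) was lost under each of these and also without WT 1, Dmp1KO 2, Dmp1KO 3 or the deepest 5% of cells, with DESeq2 and at an adjusted p under 0.05. These levels were low beside class I, where H2-K1 stood at 706 CPM in WT and 576 CPM in Dmp1KO. Of 14 class I genes, the immunoproteasome subunits Psmb8 (from 87.8 to 229 CPM) and Psmb10 (from 49.2 to 109 CPM) were at least 2-fold higher, while B2m, the light chain, fell from 1529 to 1012 CPM (log2 fold change -0.60 ± 0.06 (SE), adjusted p = 2.4e-06). B2m stood at 1043 CPM in Fgf23cKO, near Dmp1KO, and at 1240 CPM in the double knockout.

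Inflammatory genes did not move as a block, and the shares over all genes were 8.85% at least 2-fold higher and 11% lower. Of 28 tested NF-kB targets, 4 were at least 2-fold higher (1 with total UMIs) and 6 lower, with a median of -0.07. Tnfaip2 fell from 639 to 245 CPM, Tnf fell from 140.2 to 56.05 CPM, Icam1, a leukocyte adhesion ligand, fell from 33.4 to 13.5 CPM, and Il1a fell from 4.62 to 0.802 CPM. Bcl2a1b, a survival gene with near-identical paralogs, rose from 395 to 847 CPM, Tnfaip3, the feedback inhibitor A20, rose from 32.02 to 74.6 CPM, and Il1b rose from 4.85 to 12.1 CPM. Of 38 interferon-stimulated genes, 1, Oasl1 (from 2.39 to 5.901 CPM), was at least 2-fold higher and 5 were lower, led by Ifi44 (from 3.803 to 0.639 CPM) and Iigp1 (from 3.95 to 0.727 CPM).

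Chemokine genes changed in both directions, as did all tested genes (36.1% called higher and 33.9% lower, 8.85% and 11% by at least 2-fold). Of 17 tested ligands, 8 were called lower and 6 higher, 5 were at least 2-fold lower and 2 higher. Ccl2 measured 823, 749 and 758 CPM in the WT cultures and 343 and 382 CPM in the Dmp1KO cultures (log2 fold change -1.10 ± 0.12 (SE), adjusted p = 2.6e-06), and its neighbours Ccl7 (from 356 to 144 CPM) and Ccl12 (from 31.5 to 12.6 CPM) fell with it. Those at least 2-fold lower numbered 8 with total UMIs and also 8 without Dmp1KO 3. Ccl3 and Ccl4 fell less, with log2 fold changes of -0.81 and -0.98. Ccl12 stood at 15.7 CPM in Fgf23cKO and 22.0 CPM in the double knockout, also below WT. The neutrophil attractant Cxcl2 rose from 160.3 to 333 CPM, and Cxcl14 measured 30.2, 31.2 and 31.4 CPM in the WT cultures and 162 and 150.3 CPM in the Dmp1KO cultures (log2 fold change 2.33 ± 0.11 (SE), adjusted p = 2.0e-09). Ccr2, the receptor for Ccl2, fell from 13.8 to 2.06 CPM, but stood at 2.26 CPM in Fgf23cKO and 2.73 CPM in the double knockout, so WT alone was high; it was named after its values were seen. Cxcl2 stood at 279 CPM in Fgf23cKO and 442 CPM in the double knockout, also above WT. Cxcl14 stood at 121 CPM in Fgf23cKO and 41.5 CPM in the double knockout (log2 differences of Dmp1KO 0.37 and 1.92). Its level in Fgf23cKO was thus much nearer to Dmp1KO than to WT. Of 10 genes of alternative activation, 5 were at least 2-fold lower (3 without Dmp1KO 2), among them Mrc1, the lectins Clec10a (from 18.5 to 4.36 CPM) and Mgl2 (from 5.34 to 1.13 CPM) and the interleukin receptor Il4ra (from 60.5 to 28.3 CPM), and 1, fibronectin (Fn1, from 10.9 to 53.8 CPM), was higher.

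**Figure D3:**
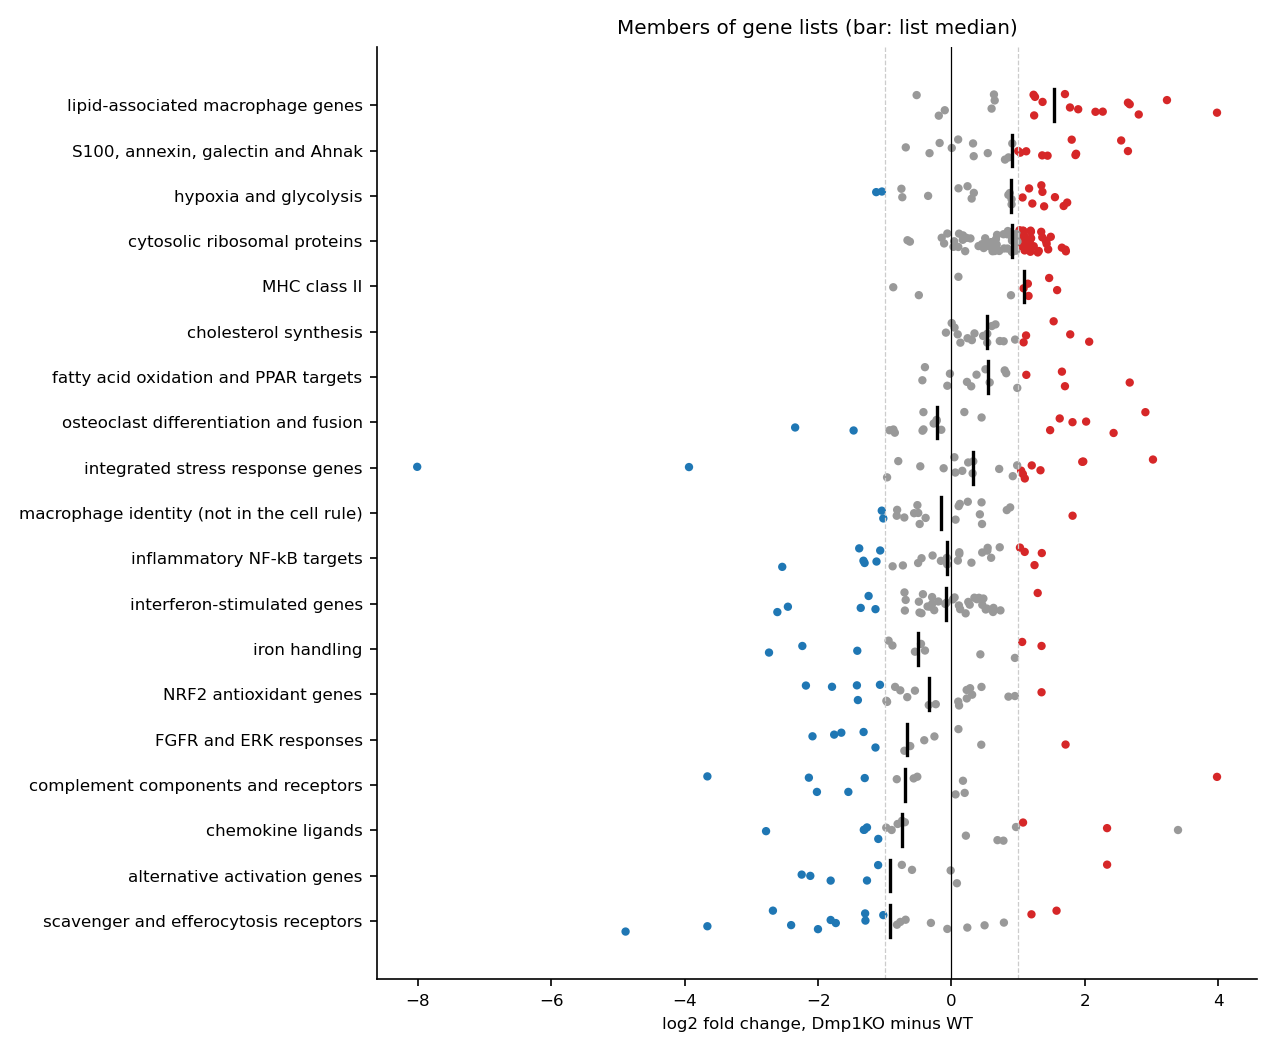
Log2 fold change between Dmp1KO and WT macrophages for the tested members of 19 gene lists, with 1 point per gene, a black bar at each list's median and dashed lines at a 2-fold change. Red and blue points are members called at least 2-fold higher and lower; lipid-associated genes lie mostly to the right of the upper line, and scavenger receptors mostly to the left of 0.

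Most genes of hypoxia and glycolysis rose. Of 22 tested, 16 were called higher and 5 lower, 9 were at least 2-fold higher and 2 lower, with a median of 0.89. Gapdh measured 460.1, 442 and 442 CPM in the WT cultures and 1506 and 1369 CPM in the Dmp1KO cultures (log2 fold change 1.68 ± 0.07 (SE), adjusted p = 5.9e-10). Pgam1 (from 137 to 456 CPM), Eno1 (from 89.9 to 235 CPM), Tpi1 (from 86.7 to 220.2 CPM), Gpi1 (from 109 to 245 CPM) and Ldha, which makes lactate (from 145 to 337 CPM), rose in the same direction. Those at least 2-fold lower were Hk2, an inducible hexokinase of the first step of glycolysis (from 139 to 63.8 CPM), and Vegfa, a growth factor for vessels (from 62.8 to 30.5 CPM), and Hif1a, the oxygen-regulated transcription factor, fell by less (from 181 to 107 CPM). Several of these enzymes have processed pseudogenes that can share their reads. Gapdh stood at 801 CPM in Fgf23cKO and 768 CPM in the double knockout, between Dmp1KO and WT. So did Eno1 (157 and 133 CPM) and Gpi1 (151 and 160 CPM).

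Of 50 nuclear genes of oxidative phosphorylation, 38 were called higher and 4 lower, but 6 and 0 of them by at least 2-fold, and the median was 0.46; with total UMIs 0 reached 2-fold. Ndufv1, a subunit of complex I, rose most (from 28.8 to 67.6 CPM). Of 13 mitochondrially encoded genes, mt-Co2 rose from 2804 to 5356 CPM, while mt-Nd6 (from 102 to 33.4 CPM), mt-Atp8 (from 236 to 88.2 CPM) and mt-Nd4l (from 1029 to 487 CPM) fell at least 2-fold. These transcripts overlap or adjoin their neighbours on the mitochondrial genome, and the mitochondrial share per cell differed little between the genotypes, as given above.

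Iron genes changed in both directions, beside 8.85% of all genes at least 2-fold higher and 11% lower. The ferritin chains, which store iron, rose: Ftl1 measured 10429, 10994 and 11072 CPM in the WT cultures and 28697 and 26554 CPM in the Dmp1KO cultures (log2 fold change 1.35 ± 0.06 (SE), adjusted p = 1.5e-09), and Fth1 rose from 17838 to 34495 CPM (log2 fold change 0.95 ± 0.05 (SE), adjusted p = 2.1e-09). Tfrc, which imports iron, fell as given above, and Slc40a1, ferroportin, which exports it, measured 383, 455 and 412 CPM in the WT cultures and 79.2 and 97.9 CPM in the Dmp1KO cultures (log2 fold change -2.24 ± 0.13 (SE), adjusted p = 6.7e-09). Ftl1 stood at 16926 CPM in Fgf23cKO and 16527 CPM in the double knockout, between Dmp1KO and WT. Fth1 was near WT in both (18476 and 17250 CPM). Steap3, a ferrireductase, rose from 17.5 to 36.3 CPM. Of 12 tested iron genes, 2 were at least 2-fold higher and 3 lower. Ferritin genes also belong to the antioxidant response to NRF2, where 1 of 23 genes was at least 2-fold higher, Ftl1 itself, and 5 were lower (9 with total UMIs): Gsta3 (from 39.6 to 8.86 CPM), Osgin1 (from 40.4 to 11.7 CPM), catalase (Cat, from 703 to 263 CPM), Me1 (from 19.3 to 7.31 CPM) and Gclm, a subunit of the enzyme that starts glutathione synthesis (from 605 to 288 CPM). Ftl1 and Fth1 have many processed copies in the genome, which can share their reads.

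Counts of stress and immediate early genes stand beside 8.85% of all genes at least 2-fold higher and 11% lower. Of 23 integrated stress response genes, 8 were at least 2-fold higher (4 with total UMIs) and 2 lower. Those higher included the serine and one-carbon enzymes Phgdh (from 0.694 to 5.37 CPM), Psat1 (from 10.04 to 22.7 CPM) and Mthfd2 (from 26.1 to 64.8 CPM), asparagine synthetase (Asns, from 9.07 to 34.8 CPM), and the transcription factors Atf3 (from 226 to 484 CPM) and Ddit3 (from 52.4 to 109.7 CPM). Vldlr, a lipoprotein receptor, fell from 2.23 to 0.139 CPM, and Slc7a11, the cystine transporter, fell by less than 2-fold (from 77.4 to 39.4 CPM). Of 17 unfolded protein response genes, 1 was at least 2-fold higher (Sdf2l1, from 67.1 to 143 CPM) and 1 lower (Pdia4, from 100 to 42.2 CPM). Of 15 genes of heat shock and cell dissociation stress, 11 were called higher and 0 lower, 1 of them, Bag3, at least 2-fold (from 15.8 to 40.9 CPM). Of 22 immediate early genes, 3 were at least 2-fold higher and 3 lower (0 and 7 with total UMIs, and 5 lower without Dmp1KO 3), Egr1 the furthest, with 136, 154 and 143 CPM in the WT cultures and 23.6 and 39.99 CPM in the Dmp1KO cultures (log2 fold change -2.19 ± 0.19 (SE), adjusted p = 3.1e-07).

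FGF receptor genes and the responses to them were also measured, since Dmp1 loss raises FGF23 in bone. Fgf23 gave 5, 4 and 0 UMIs in the WT macrophages and 2 and 0 in Dmp1KO, and Kl, its coreceptor, gave 0 UMIs in WT and 1 in Dmp1KO, so neither was tested. Fgfr3 and Fgfr4 were at 7 and 2 UMIs over the WT cultures and at 13 and 8 over Dmp1KO. Fgfr2 measured 134, 137 and 159.7 CPM in the WT cultures and 45.8 and 46.3 CPM in the Dmp1KO cultures (log2 fold change -1.64 ± 0.09 (SE), adjusted p = 3.7e-09), while its log2 difference was -0.32 to Fgf23cKO and -0.01 to the double knockout. A single annotated transcript of Fgfr2 stretches the gene to chr7:130162451-133123350, over many other genes of both strands, so its reads may not be fully separable. Fgfr1 was sparse and measured 2.396, 2.99 and 2.54 CPM in the WT cultures and 9.44 and 7.22 CPM in the Dmp1KO cultures (log2 fold change 1.63 ± 0.18 (SE), adjusted p = 2.4e-06). Of 12 tested genes that respond to FGFR and ERK signaling, 5 were at least 2-fold lower and 1 higher. At equal depth per cell 3 were lower. Dusp6, the ERK phosphatase, measured 168, 177 and 180.3 CPM in the WT cultures and 37.5 and 45.2 CPM in the Dmp1KO cultures (log2 fold change -2.08 ± 0.13 (SE), adjusted p = 1.2e-08). The ETS factors Etv1 (from 83.7 to 24.9 CPM) and Etv5 (from 75.4 to 30.3 CPM) and the inhibitor Spry2 (from 15.1 to 6.905 CPM) fell with it, and Phlda1 rose (from 2.82 to 9.3001 CPM). Dusp6 stood at 110.7 CPM in Fgf23cKO and 94.6 CPM in the double knockout, between Dmp1KO and WT. The same order held for Etv1 (57.2 and 57.8 CPM) and Etv5 (64.9 and 54.6 CPM). Other receptors than those for FGF also act through ERK in macrophages. Of 7 tested genes of phosphate transport and pyrophosphate, 0 changed at least 2-fold; the phosphate exporter Xpr1 stood at 95.1 CPM in WT and 91.2 CPM in Dmp1KO (adjusted p = 0.43).

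Osteoclast genes changed in both directions, as all tested genes did. Of 20 tested, 8 were called higher and 8 lower, near the shares over all genes (36.1% and 33.9%). At least 2-fold higher were 6 (3 at equal depth per cell) and at least 2-fold lower were 2, beside 8.85% and 11% of all genes. The median was -0.22. Dcstamp, the fusion receptor, measured 1.198, 1.43 and 6.54 CPM in the WT cultures and 26.6 and 22.05 CPM in the Dmp1KO cultures, and Atp6v0d2, a proton pump subunit linked to fusion, measured 138, 117 and 128 CPM in the WT cultures and 733 and 639 CPM in the Dmp1KO cultures (log2 fold change 2.43 ± 0.20 (SE), adjusted p = 1.7e-07). Ctsk, the collagen-degrading cathepsin, rose from 105 to 293 CPM. Acp5, the osteoclast phosphatase, stood at 30.9 CPM in WT and 26.3 CPM in Dmp1KO (adjusted p = 0.64), and Mmp9 measured 17.6, 3.67 and 21.9 CPM in the WT cultures and 0.2399 and 5.41 CPM in the Dmp1KO cultures, so that 1 Dmp1KO culture overlapped WT. Acp5 moved with the choice of cells, to a log2 fold change of 0.58 without the deepest 5% of cells, 0.77 without cycling and osteoclast-gene cells and -1.29 with the cell rule without C1q genes. Without the deepest 5% of cells that of Mmp9 was 0.053, against -2.34 with all cells, and without WT 3 Mmp9 was not called (log2 fold change -1.82). Tnfrsf11a, the receptor RANK, fell from 134 to 100.3 CPM and Nfatc1, the osteoclast transcription factor, fell from 42.3 to 31.1 CPM. The osteoclast markers Acp5, Ctsk, Mmp9, Calcr, Ocstamp and Dcstamp summed to 104 to 208 CPM in WT and 332 to 362 CPM in Dmp1KO, with 1 of the 6 at 0 in all cultures. Cells above a limit of 20 osteoclast-gene UMIs per 10000 numbered 7, 14 and 32 in WT and 95 and 67 in Dmp1KO. Without these and the cycling cells, 1216 genes were at least 2-fold higher and 1407 lower.

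Of 39 tested genes of the lysosome and its proton pump, 21 were called higher and 15 lower. At least 2-fold higher were 3, a share near the 8.85% of all genes, and 0 were lower; the 3 were Ctsl, with 498, 484 and 499 CPM in the WT cultures and 2413 and 2343 CPM in the Dmp1KO cultures (log2 fold change 2.27 ± 0.15 (SE), adjusted p = 2.2e-08), Ctsh (from 142 to 395 CPM) and Ctsz (from 629.5 to 1664 CPM). Ctsl stood at 1044 CPM in Fgf23cKO and 823 CPM in the double knockout, between Dmp1KO and WT. Ctsc (from 902 to 503 CPM), Npc1, a cholesterol transporter (from 174 to 104 CPM), and Mcoln1, a calcium channel (from 30.2 to 16.04 CPM), fell by less than 2-fold. Among 15 matrix metalloproteinases and inhibitors, 1 was at least 2-fold higher, Mmp12, with 621, 417 and 579 CPM in the WT cultures and 2688 and 2121 CPM in the Dmp1KO cultures, and 5 were lower, including Mmp14, the membrane collagenase (from 123 to 28.2 CPM), and Mmp2 (from 8.77 to 2.97 CPM).

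Of 21 tested S100, annexin, galectin and Ahnak genes, 16 were called higher and 2 lower, and 10 were at least 2-fold higher and 0 lower, with a median of 0.91. Anxa1, a membrane-binding protein with anti-inflammatory peptides, rose from 143 to 834 CPM (log2 fold change 2.54 ± 0.16 (SE), adjusted p = 2.0e-08), and Anxa2 (from 144 to 501 CPM), S100a6 (from 467 to 1269 CPM), S100a11 (from 200.4 to 727 CPM) and S100a4 (from 352 to 763 CPM) rose with it. Of 23 cytoskeletal and adhesion genes, 14 were called higher and 4 lower, and 5 and 0 of them changed at least 2-fold (3 were higher with total UMIs). Tmsb10, an actin monomer binder, measured 422, 415 and 464 CPM in the WT cultures and 3162 and 2642 CPM in the Dmp1KO cultures (log2 fold change 2.74 ± 0.19 (SE), adjusted p = 4.2e-08), and Vim, vimentin, measured 474, 382 and 383 CPM in the WT cultures and 2562 and 2219 CPM in the Dmp1KO cultures (log2 fold change 2.54 ± 0.14 (SE), adjusted p = 6.4e-09). Tmsb4x, its abundant relative, stood at 20131 CPM in WT and 19746 CPM in Dmp1KO (adjusted p = 0.63).

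Secreted growth factors went both ways, beside 8.85% of all genes at least 2-fold higher and 11% lower. Of 21 tested, 3 were at least 2-fold higher (Spp1, Csf1 and Fn1) and 4 lower: Pdgfc, with 116, 117 and 111 CPM in the WT cultures and 25.2 and 34.5 CPM in the Dmp1KO cultures (log2 fold change -1.94 ± 0.13 (SE), adjusted p = 3.2e-08), Thbs1, a matricellular protein (from 115 to 41.6 CPM), Gas6 and Vegfa. Igf1, a growth factor for osteoblasts, stood at 1391 CPM in WT and 1607 CPM in Dmp1KO (log2 fold change 0.21, and -0.055 with total UMIs). Grn, progranulin, fell from 1519 to 951 CPM, and the cytokine Il10 fell from 15.5 to 8.67 CPM (not called without Dmp1KO 2). Grn stood at 1061 CPM in Fgf23cKO and 1158 CPM in the double knockout, also below WT.

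Of 76 tested cytosolic ribosomal protein genes, 68 were called higher and 4 lower, and 31 and 0 of them by at least 2-fold, with a median of 0.91; with total UMIs 12 were at least 2-fold higher. Rpl7 rose most (from 333 to 1094 CPM), while Rps29, among the shortest of them, fell from 8945 to 5661 CPM (log2 fold change -0.66 ± 0.05 (SE), adjusted p = 7.5e-08). Ribosomal protein genes have many processed pseudogenes. Transcript length moved with the differences. Among the fifth of tested genes whose longest transcript was 66 to 1702 bases, 16.6% were at least 2-fold higher and 17.0% lower, against 5.596% and 9.34% in the fifth from 5063 bases on, and the median log2 fold changes were 0.22 and -0.13. The part of transcript length in the results on single genes was not tested.

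Proliferation genes were more often higher than lower, by small amounts. Over all genes, 36.1% were called higher and 33.9% lower. Of 24 S phase genes, 11 were called higher and 4 lower, 0 were at least 2-fold higher and 1 lower (Ccne2, from 19.2 to 7.03 CPM), and of 25 genes of G2 and mitosis, 16 were called higher and 3 lower, 1 was at least 2-fold higher (Ube2c, from 37.5 to 78.2 CPM; 0 to 3 with a culture left out and 7 without cycling or osteoclast-gene cells) and 0 lower. The median log2 fold change was 0.25 for the S phase list and 0.38 for G2 and mitosis. With total UMIs these medians were -0.013 and 0.12. Mki67, the proliferation antigen, stood at 78.3 CPM in WT and 121 CPM in Dmp1KO (log2 fold change 0.64). Cells above the cycling-gene limit numbered 201 of 896, 368 of 1778 and 310 of 1487 in WT. In Dmp1KO they numbered 578 of 2584 and 485 of 2423. Depth was not equalized for these counts. Ccnd2, a D cyclin, fell from 28.4 to 10.2 CPM, and the inhibitor Cdkn2d rose from 12.6 to 28.2 CPM. Ccne2 stood at 10.8 CPM in Fgf23cKO and 6.93 CPM in the double knockout, also below WT.

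Some RNA of genes listed for other cell types moved with the genotype. Of 18 tested stromal and osteoblast genes, 6 were at least 2-fold lower and 2 higher. The whole list summed to 132 to 176 CPM in WT and 146 to 161 CPM in Dmp1KO, which overlapped. These sums hold Fn1, which rose from 10.9 to 53.8 CPM. The 5 stromal genes of the cell rule, in contrast, summed to less in Dmp1KO than in WT, as given above. Within the whole list, the osteoblast genes Bglap, Bglap2, Ibsp, Alpl and Sp7 summed to 63.6 to 67.7 CPM in WT and 13.2 to 14.5 CPM in Dmp1KO, and the cultures did not overlap. Ibsp, a mineral-binding matrix protein, measured 37.01, 33.8 and 40.7 CPM in the WT cultures and 6.68 and 7.16 CPM in the Dmp1KO cultures (log2 fold change -2.42 ± 0.09 (SE), adjusted p = 2.9e-10). The part of this RNA in the results on other genes was not tested. The whole neutrophil list summed to 57.9 to 59.98 CPM in WT and 55.2 to 60.5 CPM in Dmp1KO. Its defining markers summed to 8.89 to 11.7 CPM in WT and 23.2 to 24.2 CPM in Dmp1KO, with S100a8 rising from 8.99 to 23.2 CPM, those of erythroid cells to 0.475 to 0.666 CPM in WT and 0.178 to 0.188 CPM in Dmp1KO, those of mast cells to 0 to 0.0769 CPM in WT and 0.0991 to 0.188 CPM in Dmp1KO, those of adipocytes to 0.231 to 0.611 CPM in WT and 0.1199 to 0.317 CPM in Dmp1KO and those of endothelial cells to 3.05 to 4.53 CPM in WT and 3.204 to 3.21 CPM in Dmp1KO. The whole dendritic cell list summed to 1650.5 to 1702 CPM in WT and 1974 to 2044 CPM in Dmp1KO. Nearly all of it was Cst3 (means of 1680 and 2008 CPM), detected at equal depth in 91.9 to 93.6% of the macrophages. The defining dendritic markers were close to 0, as given above. The T and NK cell list summed to 24.5 to 42.9 CPM in WT and 278 to 334 CPM in Dmp1KO. The B cell list summed to 1.06 to 2.58 CPM in WT and 15.04 to 18.2 CPM in Dmp1KO. The adipocyte list, which holds Fabp4, summed to 44.1 to 67.8 CPM in WT and 314 to 394 CPM in Dmp1KO. Single genes listed for other cells were higher in Dmp1KO without the rest of their list: Il7r, an interleukin receptor of lymphocytes, measured 42.7, 24.3 and 31.4 CPM in the WT cultures and 333 and 277 CPM in the Dmp1KO cultures (log2 fold change 3.27 ± 0.29 (SE), adjusted p = 4.1e-07), and Ighm, the immunoglobulin heavy chain of B cells, measured 0.666, 2.104 and 1.31 CPM in the WT cultures and 14.4 and 17.3 CPM in the Dmp1KO cultures (log2 fold change 3.41 ± 0.35 (SE), adjusted p = 1.4e-06). Flt1, a receptor for VEGF, measured 0, 0.0679 and 0.231 CPM in the WT cultures and 6.12 and 5.29 CPM in the Dmp1KO cultures.

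The differences were also read cell by cell at equal depth. Each macrophage was thinned to 2000 UMIs, which left out 172 WT and 27 Dmp1KO cells that were shallower. Mfge8 was detected in 1.78, 2.21 and 1.89% of WT cells and 46.1 and 43.5% of Dmp1KO cells, so most Dmp1KO cells gave no Mfge8 UMI at this depth. Spp1 was detected in 67.7, 67.3 and 67.6% of WT cells and 94.6 and 92.9% of Dmp1KO cells, and its median per cell was 1 UMI in each WT culture and 7 and 5 UMIs in Dmp1KO. The upper tail of Spp1 was long in Dmp1KO, with 51.5 and 43.0 UMIs at the 90th percentile of cells against 7 to 8 in WT. Lgals3 shifted as a whole, from a median of 2 UMIs in every WT culture to 17 and 12. Maf was detected in 86.6, 89.9 and 88.7% of WT cells and 31.6 and 39.3% of Dmp1KO cells, Mrc1 in 78.8, 82.8 and 80.1% of WT cells and 27.3 and 36.6% of Dmp1KO cells and Marco in 29.4, 34.1 and 35.2% of WT cells and 1.86 and 2.37% of Dmp1KO cells. Maf thus stood at a median of 4 UMIs in WT cells and of 0 in Dmp1KO cells. Apoe was found in over 99% of the cells of every culture, with medians of 36 to 41 UMIs in WT and 17 and 19 in Dmp1KO.

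**Figure D4:**
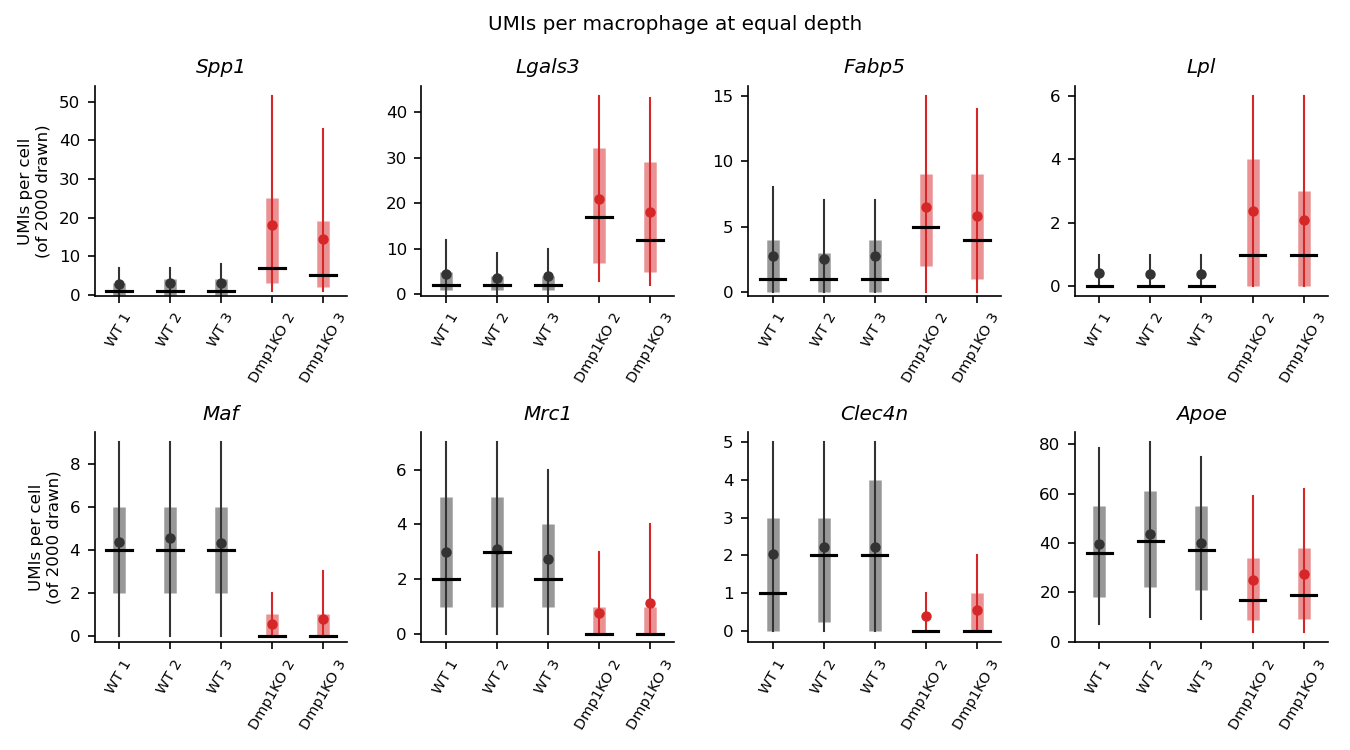
UMIs per macrophage of 8 genes after each cell was thinned to 2000 UMIs, for 3 WT and 2 Dmp1KO cultures. The thin line spans the 10th to 90th percentile of cells, the thick bar the 25th to 75th, the black bar is the median and the point the mean; Spp1 and Lgals3 spread to 40 UMIs or more in Dmp1KO cells, and the medians of Maf, Mrc1 and Clec4n are 0 there.

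Within the Dmp1KO cultures, cells with an Mfge8 UMI at this depth (1187 of 2576 and 1045 of 2404) held more of several other genes that rose and less of several that fell, among a few chosen genes. Their mean Spp1 was 25.1 and 19.8 UMIs per cell, against 11.9 and 10.2 in cells without one. Itgax was found in 34.96 and 30.2% of the cells with Mfge8 and in 18.5 and 13.5% of those without, and Npy in 44.7 and 41.1% against 21.4 and 17.5%. Maf was found in 21.9 and 26.99% against 39.8 and 48.7%, and Mrc1 in 15.7 and 21.2% against 37.1 and 48.4%. C1qb, a gene of the cell rule, was similar, at 6.17 and 6.80 against 6.57 and 6.87 UMIs per cell. Wfdc17, which was lower in Dmp1KO than in WT cells, was found in 43.8 and 42.8% against 43.6 and 44.7%. These are descriptions of cells that share a culture, and even cells without Mfge8 held less Maf than WT cells, where 86.6 to 89.9% gave a UMI.

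Spp1 and Ibsp lie beside Dmp1 on chromosome 5, and the region around a targeted gene can carry sequence of the strain in which it was targeted. Of 68 tested genes that start within 5 Mb of the Dmp1 start (chr5:104202613-104214102), 3 were at least 2-fold higher and 8 lower, Dmp1 included. Over all genes the shares were 8.85% and 11%. Several of the changed genes lay in the part of the window nearest to Dmp1, which a share over the whole window does not describe. Spp1, which starts 232.5 kb from Dmp1, was the furthest above 0, and Ibsp, at 96.6 kb, Abcg3, at 732 kb, and Gbp8, at 812 kb, were lower (log2 fold changes -2.42, -2.35 and -1.40). The double knockout is labelled with the same loss of Dmp1. Its mean Spp1 was 1688 CPM, and the log2 difference of Dmp1KO to it was 2.98. For Ibsp, Abcg3 and Gbp8 the log2 differences of Dmp1KO to the double knockout were -2.68, -2.04 and -1.38. Ibsp was also among the osteoblast genes whose sum was lower in Dmp1KO, as given above. The part of the flanking sequence in these values was not tested.

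**Figure D5:**
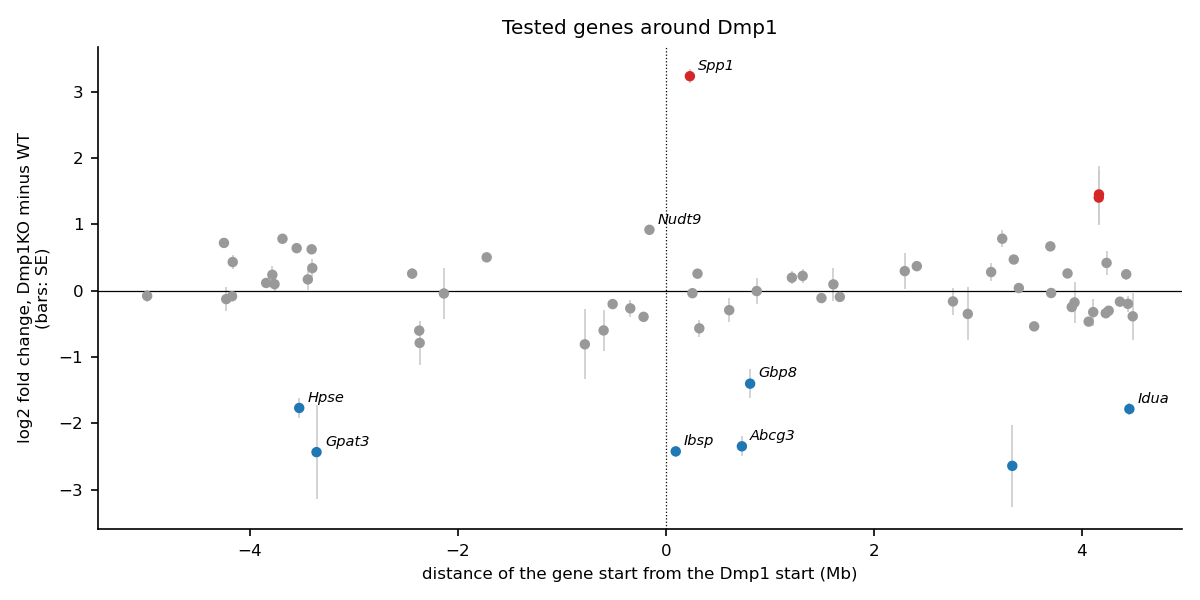
Log2 fold change between Dmp1KO and WT macrophages (y axis, bars are SE) against the distance of each gene's start from that of Dmp1 (x axis, Mb), for the tested genes within 5 Mb other than Dmp1. Red and blue points changed at least 2-fold; Spp1 stands highest and lies beside Ibsp, which is among the lowest.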

How the data were processed

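Single-cell RNA-Seq of day 21 cultures was analysed for 15 of 16 samples. The authors deposited raw UMI counts for every gene in each barcode, not normalized. Per the labels and methods, Cell Ranger 7.0.1 was run, barcodes were assigned to culture tags, and Cell Ranger was run again on the assigned barcodes, with barcodes of more than a single tag left out. The submitters' processing notes name mm10. Positions are from GENCODE M21 (GRCm38), which held 32235 of the 32285 genes. The 12 tags stayed out of the totals, no further doublet caller was run, and samples numbered 4, the untagged cells of the same pools, entered no main test.

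Raw UMIs were summed per tagged culture over the cells of the rule and fitted with edgeR 4.0.16 (R 4.3.3): TMM factors, filterByExpr, glmQLFit and glmQLFTest over 11 cultures of 4 genotypes, with the contrast Dmp1KO minus WT, Benjamini-Hochberg adjustment and a threshold of 0.1. CPM use the TMM library sizes. P values measure the spread between cultures, whose animals the labels do not give. Replicate sums differed beyond counting noise (chi-square per gene 1.91 to 2.66 in WT and 13.0 in Dmp1KO). This measure grows with the counts, which were larger in Dmp1KO. Correlations of log CPM between replicates were 0.982 to 0.989 in WT and 0.997 in Dmp1KO. On 5 simulated data sets with 200.0 changed genes among about 13492, 83.3% of the 2-fold and 95.9% of the 4-fold changes were recovered, and 12.6% of calls were false. The simulation changed few genes, in equal numbers up and down, while 70.0% of genes were called in the data. These rates may therefore not hold for the data. The SE come from the same fit and include the spread between cultures. Floors cover counting error only, and a count of 0 was read as a floor of 3 counts.

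The cells, the 44 gene lists and the rules were chosen with earlier results of these data known. Named genes were the 12 largest rises and 12 largest falls among called genes whose cultures did not overlap and whose mean was at least 20 CPM (without the 11 rule genes, mitochondrial genes and unnamed gene models), the 2 most abundant members and the furthest called members of each list, the FGF receptors, Fgf23, Kl and Dmp1. Further members were named after their values were seen, and some are not reported here. The alternatives, run with DESeq2 1.42.0 among others, are given under the dependence on processing. The test of shares and the thinning used Python 3.11.15.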

Additional observations from a re-analysis of the deposited data

How the results depend on the processing

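The numbers of genes called moved by over 1.5 times under 2 of 20 alternatives. With total UMIs in place of TMM factors, 3233 genes were higher, 7021 lower and 706 at least 2-fold higher. With each cell thinned to 2000 UMIs, where 9987 genes were tested, 3015 were higher and 2791 lower, and 616 and 557 of them by at least 2-fold. The other alternatives (RLE factors, no mitochondrial or ribosomal genes, no filter on low counts, DESeq2, only the 5 cultures, untagged samples as replicates, an adjusted p under 0.05, other cell rules and filters) stayed within that limit. With the replicate number as a block, 4895 were higher, 4527 lower, 1211 at least 2-fold higher and 1504 at least 2-fold lower. The deviations of same-numbered cultures correlated at -0.0025 and 0.043 over genes. With 2 Dmp1KO cultures their deviations mirror each other, so these values cannot decide whether the numbers carry a pairing. Leaving out each culture in turn gave 4308 to 4884 genes higher, 4209 to 4510.0 lower, 1066 to 1263 at least 2-fold higher and 1398 to 1706 at least 2-fold lower, and a difference in macrophage share of 3.26 to 7.06 percentage points. Counts of list members at 0 to 2 moved by 1 or 2 when a culture was left out in several lists (osteoclast, LXR, chemokine, iron, unfolded protein response, phosphate, metalloproteinase, cell cycle and other-cell genes). All 24 genes of the largest rises and falls kept their direction and call under all 20 alternatives. Of the other genes named, Igf1 (-0.055 with total UMIs) and Mmp9 (0.053 without the deepest 5% of cells), called in the main test, changed sign. Itgam (-0.20) with total UMIs, and Acp5 without cycling or osteoclast-gene cells (0.77) and without the deepest 5% of cells (0.58), were not called in the main test and were called there with the opposite sign, while Acp5 was called with its main sign (-1.29) under the cell rule without C1q genes; the cause was not tested. The difference in macrophage share ranged from 0.29 points (stricter cell rule) to 4.97 over the cell rules and filters and was 2.58 with the untagged samples; the tests on the tagged cultures alone could not reach the threshold. H2-Aa lost its call under more alternatives than the other genes named, as given beside it. Of the 2754 tested genes under 2.20 mean CPM, 52.1% were called, against 84.9% of the 2754 above 65.6 CPM. Calls of at least 2-fold in either direction ran the other way, at 39.5% of the former genes and 14.9% of the latter. Between these levels they made 22.0% up to 10.2 CPM, 12.1% up to 26.6 CPM and 10.5% up to 65.5 CPM. The shares of 8.85% and 11% over all genes thus draw more on sparse genes and are not matched to the levels of list members.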

Other observations

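The untagged cells of the same pools, which are not further cultures, held 316 WT and 503 Dmp1KO cells that met the macrophage rule. In CPM without TMM scaling, Mfge8 stood at 20.8 in the untagged WT and 1342 in the untagged Dmp1KO cells, Spp1 at 1630.3 and 11047, Itgax at 20.8 and 241, Maf at 1903 and 219.6, Marco at 556 and 17.5, and Vsig4 at 76.7 and 5.09. On the same scale the tagged cultures gave 10.5 to 35.6 and 1157 to 1319 for Mfge8, and 142.5 to 179 and 8.79 to 12.04 for Vsig4. Macrophages made 65.8% of the untagged WT and 69.9% of the untagged Dmp1KO cells, less than in any tagged culture of either genotype.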
